A study of Mus musculus with 2 samples.

Results

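The genes described here are the 7 listed genes of serotonin synthesis and transport, *Tph2*, *Ddc*, *Fev*, *Slc18a2*, *Slc6a4*, *Slc22a3* and *Maob*, out of 25556 genes in the count table. They were chosen by name, and all 7 were found. Their levels are given in every cluster of nuclei and in both genotypes. The nuclei came from the brainstem of 1 HET mouse and 1 WT littermate, both female, at postnatal day 41 and on the C57Bl6 background. HET mice carry the *Scn1a* A1783V knock-in on 1 allele and model Dravet Syndrome, a severe epilepsy of early life. They were bred from a floxed-stop *Scn1a* A1783V male and a *Sox2-cre* female, and this Cre acts in the early embryo, so that the allele is carried throughout the body. Neither mouse received a treatment. Single nuclei were profiled by 3′ snRNA-seq, and each captured RNA molecule was counted once by its unique molecular identifier (UMI).

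Serotonin neurons sit in the raphe nuclei along the midline of the brainstem and send axons to most of the brain and to the spinal cord. They take part in the control of breathing, arousal, body temperature and mood. Serotonin is made from tryptophan by a hydroxylase, encoded in brain neurons by *Tph2*, and then by the aromatic amino acid decarboxylase encoded by *Ddc*. It is packed into vesicles by the transporter VMAT, encoded by *Slc18a2*, taken back up after release by the serotonin transporter, encoded by *Slc6a4*, and broken down by monoamine oxidases. *Fev* (also known as Pet-1) encodes an ETS transcription factor that switches on the serotonergic genes. Vesicular packing and the decarboxylase step are shared with neurons that make dopamine and noradrenaline, whereas *Tph2*, *Slc6a4* and *Fev* are not used by those neurons.

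The WT library held 9259 nuclei and 70301390 UMIs, and the HET library held 9022 nuclei and 66176778 UMIs. The median depth of a nucleus was 5456 UMIs in WT and 5646 UMIs in HET. The libraries shared 23 barcode sequences, and none of the shared barcodes belonged to neuron.7, the cluster with most of the *Tph2* UMIs. *Scn1a* had 26726 UMIs in WT and 27823 in HET, which does not check the labels, because the knock-in is a missense change. Each genotype is 1 library, so the genotypes could not be tested against each other. Differences are therefore given as log2 ratios of CPM (counts per 1000000 UMIs), HET over WT, with exact intervals at 95% that cover counting error only and no difference between mice. A gene was called higher or lower when its ratio was at least 1.5-fold with at least 20 UMIs. The median log2 ratio of the genes with at least 200 UMIs over all nuclei was −0.10.

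All 7 genes have 1 position each in GENCODE vM21 on GRCm38, the assembly called mm10 by the authors. *Tph2* (chr10:115078641-115185022, minus strand) spans 11 exons, and *Fev* (chr1:74881509-74885419, minus strand) is the shortest gene of the set with 3 exons. *Ddc* lies at chr11:11814101-11898144 on the minus strand, *Slc6a4* at chr11:76998603-77032340 on the plus strand and *Slc18a2* at chr19:59260896-59296012 on the plus strand. *Slc22a3* lies at chr17:12418960-12507704 and *Maob* at chrX:16709282-16817366, both on the minus strand. The promoters of 4 genes are shown, as the RefSeq sequence of the 250 bases before the transcription start (GRCm38.p6), chosen because these are the hydroxylase, both main serotonin transporters and the transcription factor on which the comparisons of nuclei turn. They cover chr10:115185023-115185272 for *Tph2*, chr11:76998347-76998596 for *Slc6a4*, chr1:74885409-74885658 for *Fev* and chr19:59260628-59260877 for *Slc18a2*, each read 5′ to 3′ along the strand of its gene. Capitals mark a GATA motif (AGATAA on either strand) or a TATA box (TATAAA on either strand).
Tph2: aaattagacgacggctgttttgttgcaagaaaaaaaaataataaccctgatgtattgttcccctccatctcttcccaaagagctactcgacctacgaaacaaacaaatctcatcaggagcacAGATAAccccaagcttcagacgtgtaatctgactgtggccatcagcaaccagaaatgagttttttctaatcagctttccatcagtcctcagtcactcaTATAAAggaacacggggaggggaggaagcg
Slc6a4: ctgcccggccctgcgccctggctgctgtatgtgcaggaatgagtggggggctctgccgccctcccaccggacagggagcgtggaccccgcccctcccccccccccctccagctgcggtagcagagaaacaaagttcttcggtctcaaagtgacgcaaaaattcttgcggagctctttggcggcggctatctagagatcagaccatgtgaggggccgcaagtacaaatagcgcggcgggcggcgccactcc
Fev: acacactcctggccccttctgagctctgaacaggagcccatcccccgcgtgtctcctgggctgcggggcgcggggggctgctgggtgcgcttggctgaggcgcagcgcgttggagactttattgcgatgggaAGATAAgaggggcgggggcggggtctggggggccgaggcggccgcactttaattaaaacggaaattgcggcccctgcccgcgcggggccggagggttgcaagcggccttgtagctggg
Slc18a2: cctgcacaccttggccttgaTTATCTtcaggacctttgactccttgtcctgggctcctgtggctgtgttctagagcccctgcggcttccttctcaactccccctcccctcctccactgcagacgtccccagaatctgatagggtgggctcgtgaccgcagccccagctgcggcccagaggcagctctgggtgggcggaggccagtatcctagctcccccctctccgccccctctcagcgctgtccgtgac
The *Tph2* window held AGATAA beginning 128 bases and TATAAA beginning 30 bases before the start. The *Fev* window held AGATAA 118 bases before the start, and the *Slc18a2* window held it on the opposite strand, 230 bases before the start. No GATA motif, TATA box or ETS core (CCGGAA on either strand) was found in the *Slc6a4* window. Among the members that are not printed, the first of 2 *Ddc* promoters held TATAAA and the *Slc22a3* promoter held CCGGAA, both on the opposite strand. None of these matches overlapped another. Of all 32851 promoters of this length, 9.99% held AGATAA, 12.4% held TATAAA and 12% held CCGGAA, so that these letters are common. *Maob* was not matched to a promoter.

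*Tph2* and *Slc6a4* were close to absent outside a single small cluster, neuron.7, in which all 7 genes had their highest level over both libraries together. Neuron.7 held 46 WT nuclei (0.497% of the library) and 33 HET nuclei (0.366%), and all 79 carried the reference label of neurons. Because the authors drew the clusters from the same counts, the levels in neuron.7 are a description. Over both libraries, 89.5% of *Tph2* UMIs (87.7 to 91.1%), 89.1% of *Slc6a4* UMIs (86.5 to 91.3%) and 52.6% of *Fev* UMIs (35.8 to 69.0%) lay in neuron.7. The shares were 51.8% for *Slc22a3*, 44.4% for *Ddc*, 18.2% for *Maob* and 15.9% for *Slc18a2*. With each nucleus given the same weight the shares of *Ddc* and *Maob* were 25.4% and 7.48%, and that of *Maob* was then below that of *Slc18a2*, at 12%. *Tph2* stood at 1298 CPM in neuron.7 and 1.00 CPM in all other nuclei, and *Slc6a4* at 709 and 0.575 CPM. *Ddc* stood at 737 CPM in neuron.7 and 6.09 CPM outside, *Slc18a2* at 668 and 23.3 CPM, *Slc22a3* at 230 and 1.42 CPM, *Maob* at 178 and 5.26 CPM, and *Fev* at 22.3 and 0.133 CPM. For each member but *Fev* the interval of neuron.7 lay above that of the next cluster, and for *Fev* it overlapped that of neuron.9, which rests on 1 UMI. *Tph2*, *Slc6a4*, *Slc18a2* and *Ddc* were detected together in 44 of 46 WT and 31 of 33 HET nuclei of neuron.7 and in 0 of 18202 nuclei elsewhere.

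Neuron.7 was taken as serotonergic from the levels above, and markers of other neurons were also counted. *Th*, *Dbh*, *Slc6a2*, *Slc6a3* and *Phox2a*, which mark noradrenaline and dopamine neurons, had 0 UMIs in neuron.7 in both libraries. The 3 glutamatergic markers summed to 49.2 CPM in WT and 36.1 CPM in HET, against 79.7 and 99.5 CPM outside. Of these, *Slc17a8* stood above its level outside, at 29.5 and 18.0 CPM against 2.71 and 2.90 CPM, while *Slc17a6* stood below. The 4 inhibitory markers summed to 61.1 and 54.1 CPM, against 219 and 167 CPM outside. *Lmx1b*, a transcription factor needed for serotonin neurons, stood at 92.6 CPM in WT nuclei and 111 CPM in HET nuclei of the cluster, against 10.2 and 11.2 CPM outside. Markers of glia and vessels were also counted in neuron.7, with the 3 oligodendrocyte markers summing inside neuron.7 to 67.0 CPM for WT and 90.2 for HET, and outside it to 323 and 479 CPM. The 3 microglia markers came closest to their level elsewhere, at 100 CPM in WT and 137 CPM in HET against 131 and 162 CPM outside, most of it from *P2ry12*, and their part in the results was not tested.

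**Figure D1:**
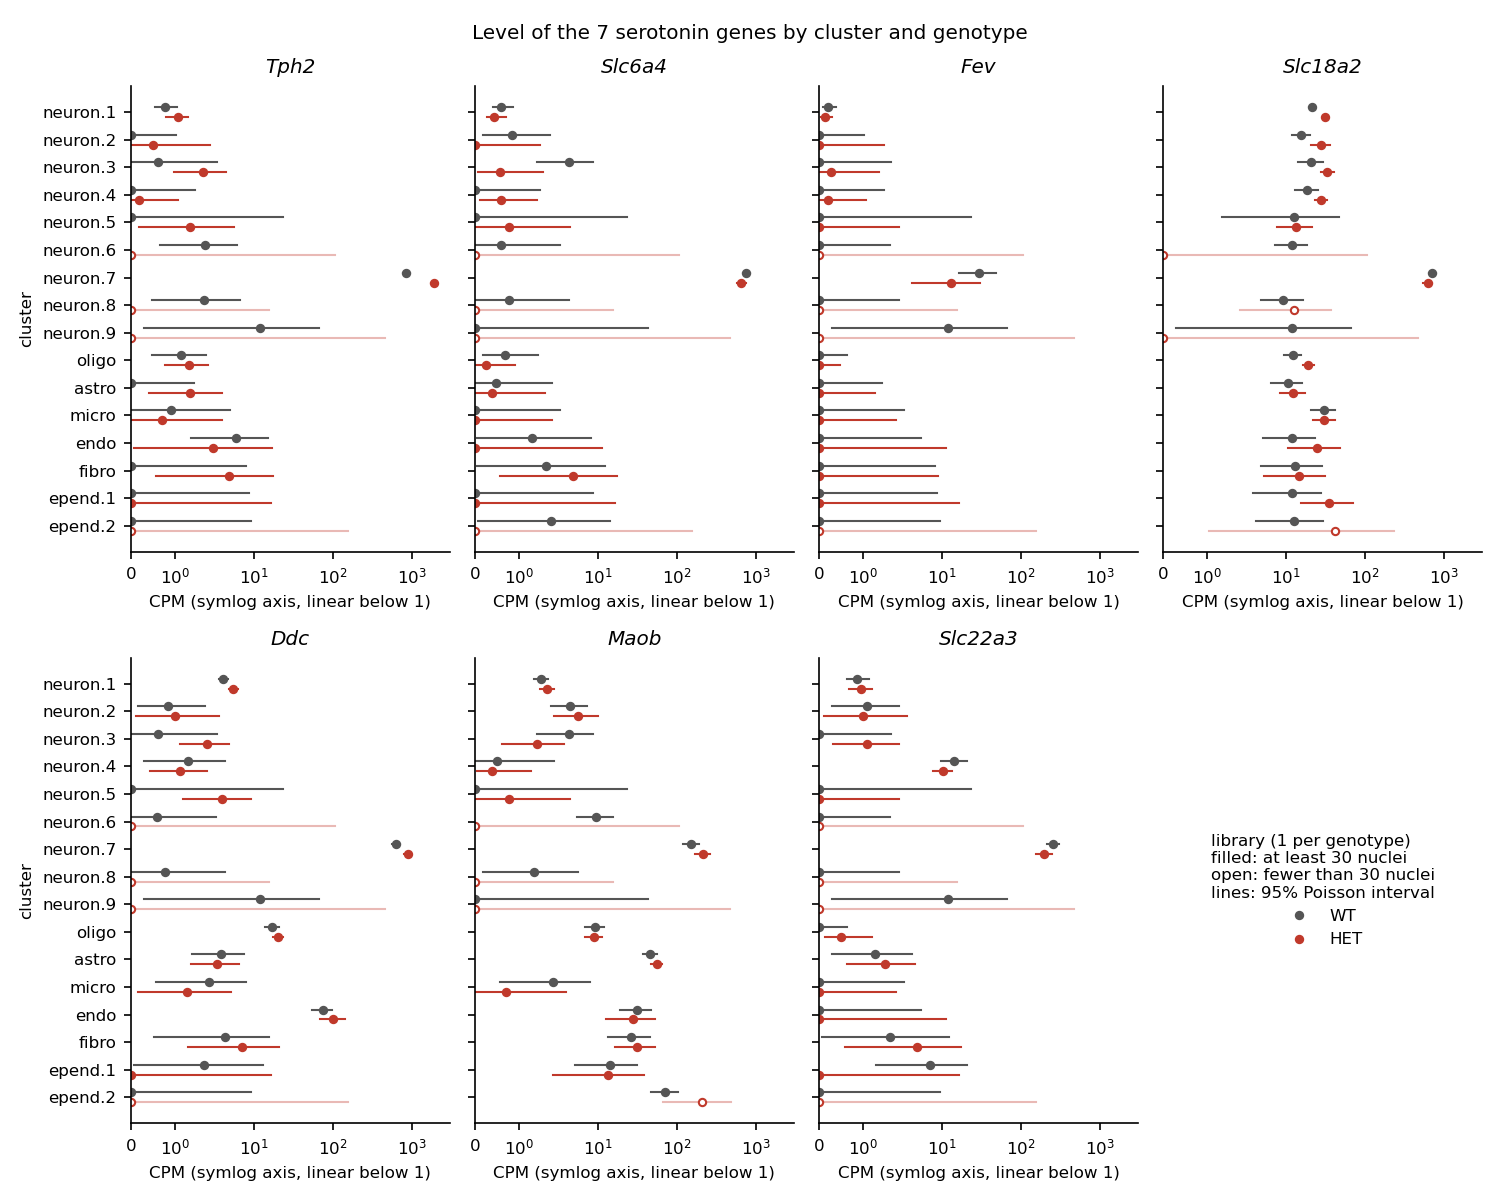
Level of each gene in each of the 16 clusters, in CPM (symmetric log axis), with WT in grey and HET in red. Points are sums over the nuclei of a cluster, lines are exact Poisson intervals at 95%, and open points have fewer than 30 nuclei; over both libraries together all 7 genes are highest in neuron.7, and *Ddc* and *Maob* have further levels in endo, oligo, astro and epend.2.

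Within neuron.7, *Tph2* was 2.23-fold higher in HET than in WT, while the intervals of *Slc18a2* and *Slc6a4*, the vesicular and the plasma membrane transporter, included 0. *Tph2* had 430 UMIs among 507616 in WT (847 CPM, 769 to 931) and 733 UMIs among 388113 in HET (1889 CPM, 1754 to 2030), a log2 ratio of 1.16 (0.98 to 1.33). The lowest, median and highest WT nuclei held 0, 795 and 2030 CPM, and the lowest, median and highest HET nuclei 393, 1824 and 4711 CPM. The ranges of the nuclei overlapped, but 28 of 33 HET nuclei lay above the WT median and 12 lay above the highest WT nucleus, whereas 3 of 46 WT nuclei lay above the HET median. Nuclei of 1 library share a mouse and are not replicates. Of the 7 genes, 1 (*Tph2*) was called higher and 1 (*Fev*) was called lower in neuron.7, where 10.5% of 6940 genes were called higher, 19.6% were called lower and 30.1% were called in either direction. Among the 1602 genes with at least 100 UMIs in neuron.7, 14, or 0.874%, had a ratio as high as that of *Tph2* or higher. Without the nucleus of each library with the most *Tph2* UMIs the ratio was 1.16.

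**Figure D2:**
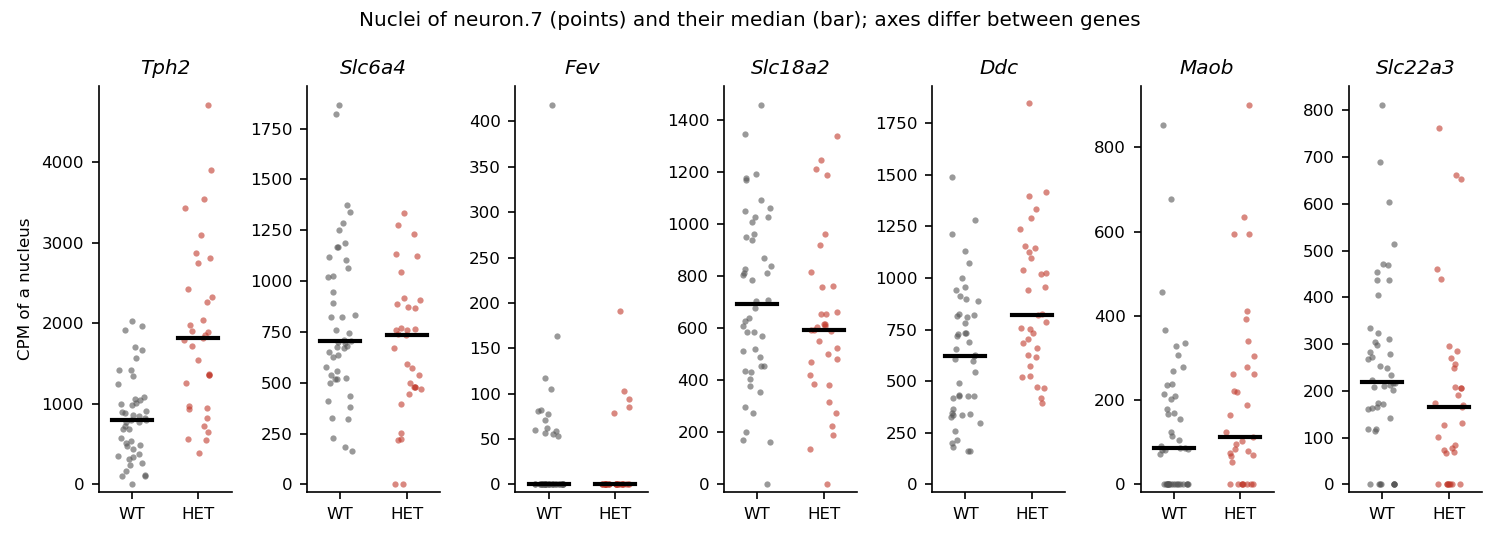
Level of each gene in every nucleus of neuron.7, in CPM of that nucleus (linear axis, scaled separately for each gene), for the 46 WT nuclei in grey and the 33 HET nuclei in red. Black bars are medians; the *Tph2* medians are 795 and 1824 CPM, and for *Slc6a4* they are 704 and 735 CPM.

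Other values also differed between the 2 groups of neuron.7 nuclei. The 19 *Hox* genes that mark position along the hindbrain, a list added after the data were seen, had 34 UMIs in WT (67.0 CPM) and 13 UMIs in HET (33.5 CPM), and their part in the *Tph2* result was not tested beyond a split of the nuclei. Of the 19, 7 were at 0 in WT and 12 in HET. Over all nuclei 16 of these 19 genes were called lower in HET and none higher. In nuclei with a *Hox* UMI (23 WT, 9 HET) the log2 ratio of *Tph2* was 1.27, and in nuclei without one (23 WT, 24 HET) it was 1.00. The first rests on 204 *Tph2* UMIs in WT and 233 in HET, and the second on 226 and 500. With 34 and 13 *Hox* UMIs in all, a nucleus without one is not shown to lack *Hox* RNA. The ratios of this split are given without intervals. Median depth was 11336 UMIs in WT and 11780 UMIs in HET. The median mitochondrial percentage was 0.169% and 0.260%, and the median ribosomal percentage 0.517% and 0.296%. The median doublet score was 0.170 and 0.0990. The part of these values in the result was not tested. With 1 dissection per genotype, genotype and the part of the raphe that was sampled cannot be told apart.

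*Ddc*, which encodes the second enzyme of the pathway, was 1.41-fold higher in HET, below the 1.5-fold threshold. It had 318 UMIs in WT (626 CPM) and 342 UMIs in HET (881 CPM), with a log2 ratio of 0.49 (0.27 to 0.72). WT nuclei ranged from 161 to 1491 CPM with a median of 624, and HET nuclei from 394 to 1846 CPM with a median of 822. The ranges overlapped widely, with 25 of 33 HET nuclei above the WT median. The ratio was 0.14 in nuclei with a *Hox* UMI (176 *Ddc* UMIs in WT, 92 in HET) and 0.67 in nuclei without (142 and 250). *1700042O10Rik*, an antisense gene whose whole length of 17199 bases lies over *Ddc* on the opposite strand, was counted apart from *Ddc*, with 632 UMIs in WT (1245 CPM) and 448 in HET (1154 CPM) and a log2 ratio of −0.11 (−0.29 to 0.07) in neuron.7. Use of strand in the counting is not given in the sources used here, so reads of *Ddc* and of this gene may not be fully separated.

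*Slc18a2*, the vesicular transporter, and *Slc6a4*, the serotonin transporter, had log2 ratios below 0 with intervals that include 0. *Slc18a2* had 358 UMIs in WT (705 CPM) and 240 in HET (618 CPM), with a log2 ratio of −0.19 (−0.43 to 0.05). The medians of the nuclei were 691 and 594 CPM, and the highest nuclei held 1456 and 1338 CPM. *Slc6a4* had 382 UMIs in WT (753 CPM) and 253 in HET (652 CPM), with a log2 ratio of −0.21 (−0.44 to 0.03). WT nuclei ranged from 164 to 1866 CPM with a median of 704, and HET nuclei from 0 to 1335 CPM with a median of 735. For both transporters no HET nucleus exceeded the highest WT nucleus. By counting error alone the intervals reach down to a decrease in HET of 0.44 on the log2 scale. Differences between mice are not covered, so this is not a limit on the genotype difference. *Tph2* UMIs outnumbered *Slc6a4* UMIs in 23 of 46 WT nuclei (50.0%) and in 29 of 33 HET nuclei (87.9%).

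*Fev* was sparse even in neuron.7. It had 15 UMIs in WT, in 14 of 46 nuclei, and 5 UMIs in HET, in 5 of 33 nuclei, and no nucleus held more than 2. The levels were 29.5 and 12.9 CPM and the log2 ratio was −1.20, with an interval from −3.01 to 0.34 that includes no difference. *Fev* passed the minimum of 20 UMIs exactly, so its call rests on the smallest admitted count. With shares of nuclei thinned to 1000 UMIs, *Fev* was expected in 2.50% of neuron.7 nuclei, against 63.6% for *Tph2* and 51.3% for *Slc6a4*.

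*Slc22a3*, a low-affinity, high-capacity transporter of organic cations including monoamines, had 130 UMIs in WT (256 CPM) and 76 in HET (196 CPM) within neuron.7. Its log2 ratio was −0.39 (−0.82 to 0.03). The median nucleus held 220 CPM (WT) or 166 CPM (HET), and 38 of 46 and 25 of 33 nuclei held a UMI. The ratio was −1.10 in nuclei with a *Hox* UMI (77 *Slc22a3* UMIs in WT, 17 in HET) and 0.01 in nuclei without (53 and 59). *Maob*, the mitochondrial monoamine oxidase that is also typical of astrocytes, had 77 UMIs in WT (152 CPM) and 82 in HET (211 CPM), with a log2 ratio of 0.48 (0.01 to 0.95). It was detected in 28 of 46 WT and 25 of 33 HET nuclei, and a single WT nucleus held 15.6% of the WT UMIs. The intervals of both genes are wide at this depth.

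**Figure D3:**
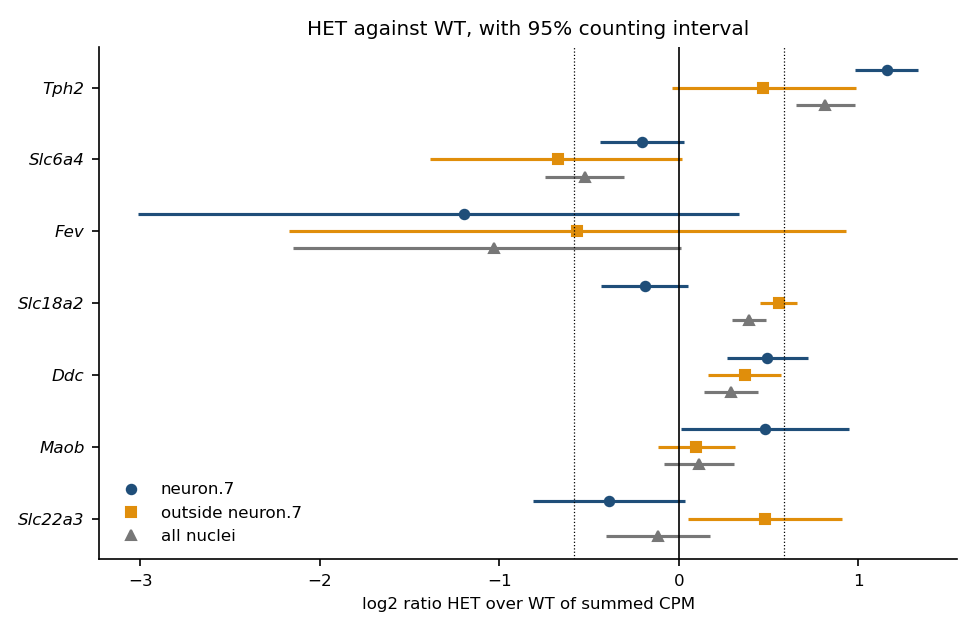
Log2 ratio of CPM, HET over WT, for each gene in neuron.7 (blue circles), in all other nuclei (orange squares) and in all nuclei (grey triangles), with exact intervals at 95% for counting error as lines. Dotted lines mark the 1.5-fold threshold; *Tph2* in neuron.7 lies beyond it with its whole interval, and *Slc18a2* lies on different sides of 0 inside and outside neuron.7.

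Over all nuclei the same comparison gave other values. *Tph2* had 489 UMIs in WT and 810 in HET, with a log2 ratio of 0.82 (0.65 to 0.98), and *Slc6a4* had 431 and 282, with a ratio of −0.52 (−0.75 to −0.30). Ratios were 0.39 (0.30 to 0.48) for *Slc18a2* and 0.29 (0.14 to 0.44) for *Ddc*. They were 0.11 for *Maob*, −0.12 for *Slc22a3* and −1.03 for *Fev*, each with an interval that includes 0. Again 1 member was called higher (*Tph2*) and 1 lower (*Fev*), against 10.9% and 15.3% of 21997 genes and 26.3% in either direction. A ratio over all nuclei does not by itself tell fewer cells of a type from less RNA per cell. Neuron.7 held 46 WT and 33 HET nuclei, and within it the ratio of *Slc6a4* was −0.21 (−0.44 to 0.03).

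Outside neuron.7, *Tph2*, *Slc6a4* and *Fev* appeared almost only as single UMIs. *Tph2* was detected in 122 of 18202 nuclei (0.670%), with at most 4 UMIs in a nucleus, *Slc6a4* in 74 (0.407%) and *Fev* in 18 (0.0989%). With each nucleus thinned to 1000 UMIs, the expected share with *Tph2* was 0.110% in the other neuronal clusters (median depth 8035 UMIs) and 0.140% in non-neuronal nuclei whose cluster and reference label agree (median depth 2837 UMIs), whose intervals of 0.058 to 0.189% and 0.062 to 0.272% overlap. For *Slc6a4* the shares were 0.0770% and 0.0607%. The shares of *Tph2* and *Slc6a4* in other neurons thus did not exceed those in glia and vessels beyond counting error. All 18 nuclei with *Fev* lay in the other neuronal clusters, and 0 of 6770 non-neuronal nuclei held it. Thinned, the *Fev* shares were 0.0219% (0.00364 to 0.0701%) and 0% (0 to 0.0618%), with intervals that overlap. At least 2 *Tph2* UMIs were found in 7 nuclei of the other neuronal clusters and in 0 non-neuronal nuclei. Only 2 nuclei outside neuron.7 held more than 1 of *Tph2*, *Slc6a4* and *Fev*, both HET, 1 in neuron.1 and 1 in neuron.3, whereas 45 of 46 WT and 31 of 33 HET nuclei of neuron.7 did.

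Within each library, the ratio of *Tph2* to *Slc6a4* UMIs was alike inside and outside neuron.7, with intervals that overlap. The WT library held 1.13 *Tph2* UMIs per *Slc6a4* UMI in neuron.7 (0.98 to 1.30) and 1.20 outside it (0.81 to 1.80, 59 and 49 UMIs). The HET library held 2.90 in neuron.7 (2.51 to 3.36) and 2.66 outside it (1.71 to 4.22, 77 and 29 UMIs). Outside neuron.7 the intervals of the 2 libraries overlap slightly, whereas inside they do not. The other members differed far more between the 2 sets of nuclei. *Slc18a2* UMIs per *Tph2* UMI went from 0.833 in neuron.7 to 22.4 outside in WT and from 0.327 to 23.8 in HET, and *Ddc* UMIs per *Tph2* UMI from 0.740 to 6.32 and from 0.467 to 5.88.

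**Figure D4:**
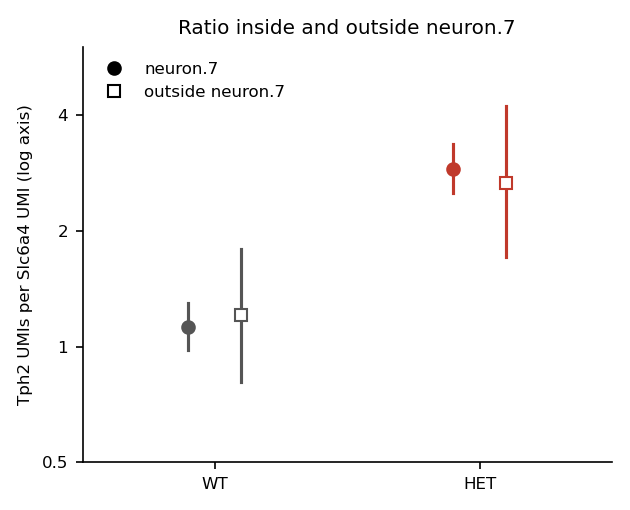
*Tph2* UMIs per *Slc6a4* UMI (log axis) in neuron.7 (filled circles) and in all other nuclei (open squares) of the WT library in grey and the HET library in red, with exact intervals at 95% for counting error. The values are 1.13 and 1.20 in WT and 2.90 and 2.66 in HET, so that the inside and outside intervals overlap within each library.

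*Slc18a2* had the most UMIs outside neuron.7 of all members. After neuron.7 it stood at 30.1 CPM in micro, 29.3 in neuron.3, 25.4 in neuron.1 and 25.0 in neuron.4, neighbours whose intervals overlap, and it stood at 16.2 CPM in oligo and 11.4 CPM in astro. Most micro nuclei, 297 of 405, carry another reference label. Thinned to 1000 UMIs, a *Slc18a2* UMI was expected in 2.41% of neuron.1 nuclei (2.11 to 2.75%), 1.60% of oligo nuclei (1.24 to 2.03%) and 1.15% of astro nuclei (0.646 to 1.88%). Outside neuron.7 it had 1323 UMIs in WT (19.0 CPM) and 1835 in HET (27.9 CPM), with a log2 ratio of 0.56 (0.45 to 0.66) that stayed under the threshold. No member was called higher and 1, *Slc6a4*, was called lower in these nuclei (49 and 29 UMIs, −0.67), with an interval of −1.39 to 0.02 that includes 0, where 11.0% of 21974 genes were called higher, 15.3% lower and 26.3% in either direction. The log2 ratio of *Slc18a2* was 0.56 in neuron.1 (0.44 to 0.68), 0.83 in neuron.2, 0.69 in neuron.3, 0.60 in neuron.4 and 0.66 in oligo, each with an interval above 0. It was 0.02 in micro (−0.67 to 0.72), 0.24 in astro, 0.13 in fibro and 0.07 in neuron.5, and 1.05 in endo and 1.58 in epend.1 from few UMIs, each with an interval that includes 0. In neuron.7 it was −0.19, with an interval that lies below all of that in neuron.1.

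The nuclei outside neuron.7 with the most *Slc18a2* carried catecholamine genes. A group of 25 nuclei of neuronal clusters (13 WT, 12 HET) held at least 3 UMIs of *Th*, *Dbh* and *Slc6a2* together. These genes encode tyrosine hydroxylase, dopamine β-hydroxylase and the noradrenaline transporter. In the non-neuronal clusters 1 HET nucleus also met this minimum, with 3 *Slc6a2* UMIs and 0 of *Slc18a2* and *Ddc*, and was left out. The group was defined after the data were seen, and 22 of the 25 lay in neuron.1. *Slc18a2* stood at 332 CPM in its WT nuclei (238 to 450) and 544 CPM in its HET nuclei (441 to 663), and 20 of 25 nuclei held a UMI. Median depth in the group was 8411 UMIs in WT and 14506 UMIs in HET, and the minimum of 3 UMIs was not scaled to depth. The part of depth in the difference between its WT and HET nuclei was not tested. *Ddc* stood at 129 CPM in WT (74.0 to 210) and 166 CPM in HET (112 to 238). In the other neuronal nuclei *Slc18a2* stood at 23.5 CPM and *Ddc* at 3.67 CPM. *Tph2*, *Slc6a4*, *Fev* and *Slc22a3* had 0 UMIs in these 25 nuclei, which allows up to 12.1 CPM by the exact interval, and *Maob* had 4 UMIs. Of the 10 nuclei outside neuron.7 with the most *Slc18a2* UMIs, 9 belonged to this group. Without these nuclei the log2 ratio of *Slc18a2* outside neuron.7 was 0.53.

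**Figure D5:**
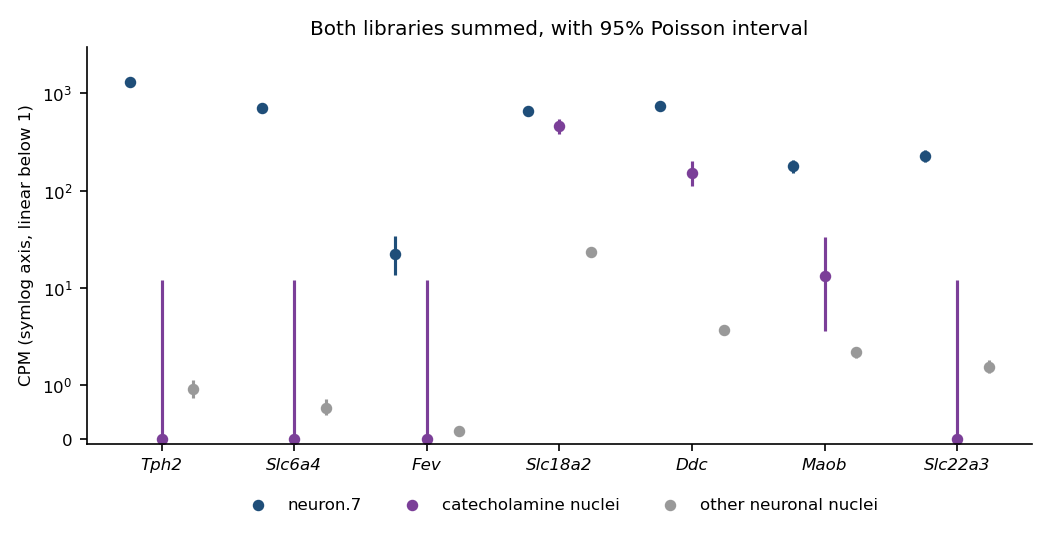
Level of each gene in CPM (symmetric log axis) over both libraries in the 79 nuclei of neuron.7 (blue), the 25 catecholamine nuclei (purple) and all other neuronal nuclei (grey), with exact Poisson intervals at 95%. *Slc18a2* and *Ddc* are high in both of the first groups, at 668 and 457 CPM and at 737 and 151 CPM, whereas *Tph2*, *Slc6a4*, *Fev* and *Slc22a3* are at 0 in the catecholamine nuclei.

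*Ddc* had further levels in vessels and oligodendrocytes. The endo cluster stood at 82.7 CPM (65.9 to 103), and its interval overlapped neither that of neuron.7 nor that of the next cluster, oligo, at 18.9 CPM (16.7 to 21.4). Endo nuclei held 50 UMIs in WT (74.0 CPM) and 33 in HET (101 CPM), and oligo nuclei held 100 in WT (17.1 CPM) and 160 in HET (20.3 CPM), without a difference beyond counting error in either. In endo nuclei whose reference label also names endothelium, *Ddc* stood at 100 CPM and a UMI was found in 19.6% of 209 nuclei. After neuron.7, *1700042O10Rik* was also highest in endo and oligo, with 47.9 CPM in endo and 22.1 CPM in oligo. In neuron.1, which includes most catecholamine nuclei, *Ddc* had 199 UMIs in WT and 224 in HET, a log2 ratio of 0.42 (0.14 to 0.70).

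*Maob* had its next levels in ependymal and glial clusters. It stood at 78.5 CPM in epend.2 (54.0 to 110), 51.1 CPM in astro (44.8 to 58.0), 29.9 CPM in endo and 28.5 CPM in fibro. In this order epend.2 and astro overlap in their intervals, as do endo and fibro, while astro lies above endo. Of the epend.2 nuclei 108 were WT and 6 HET. In neuron.1 it stood at 2.08 CPM. Astro nuclei held 97 UMIs in WT (45.9 CPM) and 144 in HET (55.3 CPM), with a log2 ratio of 0.27 (−0.11 to 0.66). *Slc22a3* had a second, lower peak in neuron.4, at 11.4 CPM (9.10 to 14.2), with 29 UMIs in WT (14.3 CPM) and 53 in HET (10.3 CPM). Its log2 ratio there was −0.47 (−1.15 to 0.23), and in neuron.1 it stood at 0.911 CPM. Neuron.4 held 114 WT and 339 HET nuclei. Over all nuclei outside neuron.7 the log2 ratio of *Slc22a3* was 0.48 (0.05 to 0.91), and with equal weights of the clusters across the libraries it was −0.18.

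Other genes of the pathway were followed in 4 lists of 39 genes. Of the 11 serotonergic identity and autoreceptor genes, 6 stood at least 5 times higher in neuron.7 than outside. These were the transcription factors *Lmx1b* (9.40 times), *Gata2* (18.8 times) and *Gata3* (11.4 times) and the receptors *Htr1a* (6.82 times), *Htr1b* (12.9 times) and *Htr1d* (16.7 times), through which serotonin restrains its own release. The *Htr1a* value rests on only 6 UMIs in WT and 5 in HET within neuron.7. *Htr1d* had 12 UMIs in WT and 23 in HET within neuron.7, a log2 ratio of 1.33 (0.26 to 2.47), and *Htr1b* had 36 and 44, a ratio of 0.68 (0.01 to 1.35). *Gata2* had 22 and 11 UMIs and *Gata3* 40 and 20, both with a ratio of −0.61, −0.52 with the median of all genes set to 0, and an interval that includes 0. *En1*, *En2* and *Htr5b* had 0 UMIs in neuron.7. Of the 5 genes of this list with at least 20 UMIs in neuron.7, 2 were called higher and 2 lower, with a median of 0.26 against −0.09 for all genes there, of which 10.5% were called higher and 19.6% lower. With so few genes this count is a description. Over all nuclei 1 of 10 was called higher and 2 lower, against 10.9% and 15.3% of all genes, with a median of −0.16. *En2*, a midbrain and hindbrain transcription factor, was higher (1.04, 0.58 to 1.51), and *Htr5b*, a serotonin receptor, was lower (−3.03, −3.69 to −2.43), as was *Gata2* (−0.59, −0.94 to −0.25). The clusters are unequally filled, with 120 WT and 5 HET nuclei in neuron.6 and 42 and 332 in neuron.5. The part of this in the ratios over all nuclei was not tested for these genes.

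*Gch1*, which encodes the first enzyme in making tetrahydrobiopterin, the cofactor of the tryptophan hydroxylase, was lower in HET neuron.7 nuclei. *Gch1* stood 111 times higher in neuron.7 than outside, with 102 UMIs in WT (201 CPM) and 51 in HET (131 CPM) and a log2 ratio of −0.61 (−1.13 to −0.11). This ratio is just past the threshold. With the median of the 6940 genes with at least 20 UMIs in neuron.7 (−0.09) set to 0 it was −0.52, short of it. The 1602 genes with at least 100 UMIs there, a set that holds *Gch1*, had a median of 0.03. Centring on that set was not run, so the loss of the call applies to the first set only. Its regulator *Gchfr* stood 80.0 times higher in neuron.7, with 18 and 10 UMIs. Of the 8 cofactor and amino acid supply genes, 2 of 5 counted genes were called lower in neuron.7 (*Gch1* and *Qdpr*) and none higher, with a median of −0.46, where 19.6% of all genes were called lower. Over all nuclei 4 of 8 were called lower and none higher, with a median of −0.59, where 15.3% of all genes were called lower. These were *Gch1* (−0.71), *Spr* (−0.75) and *Pcbd1* (−0.66), all of the cofactor pathway, and *Slc7a5* (−0.95), which carries large neutral amino acids such as tryptophan, each with an interval below 0.

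Of the 12 genes of other synthesis, breakdown and transport, 11 were counted over all nuclei, of which 2 were called higher and 1 lower, with a median of −0.06, against 10.9% and 15.3% of all genes. *Aldh1a1* (0.60, 0.53 to 0.68) and *Asmt* (0.87, 0.36 to 1.38), which encodes the last enzyme of melatonin synthesis, were higher, and the aldehyde dehydrogenase gene *Aldh2* (−0.89, −1.04 to −0.75) was lower. In neuron.7 only *Maoa* of this list had enough UMIs, and it was called neither way. Of the 8 catecholamine and histamine genes, 6 were counted over all nuclei, of which 1 was called higher and 2 lower, with a median of −0.08, against the same shares of all genes. *Th*, which encodes the first enzyme of catecholamine synthesis, was higher (0.63, 0.26 to 1.01). The catecholamine nuclei, defined in part by *Th*, held 28 *Th* UMIs in 13 WT nuclei and 60 in 12 HET nuclei. The other neuronal nuclei held 69 in WT (1.18 CPM) and 82 in HET (1.56 CPM). *Phox2a*, a transcription factor of noradrenergic neurons, with 22 UMIs in WT and 13 in HET, was called lower (−0.67) with an interval that includes 0. None of the 8 reached 20 UMIs in neuron.7, where they had 0 UMIs in WT and 1 in HET. For the genes of these lists too, the part of unequally filled clusters in the ratios over all nuclei was not tested.

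The genes with the levels most like those of each member over the 12 clusters that have 30 or more nuclei from both mice were found by Pearson's r of log2 CPM. This is a description over clusters that share libraries, and r is high for any gene with its peak in neuron.7. *Slc6a4* was most like *Tph2* (r = 0.977), followed by *Inpp5k* (0.934) and *Arhgap36* (0.927). *Slc6a4* itself was followed by *Inpp5k* (0.944) and *Vezt* (0.930) after *Tph2*, and the genes most like *Fev* were *Slc6a4* (0.974), *Slc18a2* (0.970) and *Tph2* (0.962). *Slc18a2* was most like *Tmprss9* (0.958), *Calcr* (0.949) and *Slc6a4* (0.916). *Ddc* was most like *1700042O10Rik* (0.964), *Gch1* (0.910) and *Lcorl* (0.909). *Maob* was most like *Irak1* (0.900), *Mtg2* (0.895) and *1110038B12Rik* (0.894), and *Slc22a3* was most like *Stk31* (0.882), *Asb5* (0.881) and *Gm14697* (0.879).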

How the data were processed

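Brainstem nuclei of 1 WT and 1 HET mouse were profiled with 10x Chromium 3′ v3.1 chemistry. The authors deposited raw UMI counts per gene and nucleus, made with Cell Ranger (version not given in the sources used here) on mm10 and filtered in Seurat 4.1 with limits of 15% mitochondrial UMIs and at least 1000 genes per nucleus. The deposited percent values are UMIs of mitochondrial and ribosomal protein genes of all UMIs of a nucleus, and the deposited doublet score is the authors' value. Nuclei called doublets had been removed by the authors, and clusters and reference labels were taken as deposited. Counts were summed per library and cluster and divided by all UMIs of those nuclei to give CPM. Intervals at 95% are exact: Poisson for CPM, conditional Poisson for ratios and Clopper-Pearson for shares. They cover counting error only. Thinned shares are expectations when 1000 UMIs are drawn from each nucleus.

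The members and the lists were chosen with earlier results of these data known. Genes were named by rule: the 7 members, the 3 genes with at least 200 UMIs most like each member, and list genes with at least 20 UMIs that stood at least 5 times higher in neuron.7 than outside or passed 1.5-fold over all nuclei with an interval off 0. *Hox* genes, *En1*, *Maoa*, *Qdpr*, *Phox2a* and the catecholamine nuclei were chosen after the data were seen. A list gene that the rule names is not reported here. Neuron.7 held 507616 UMIs in WT and 388113 in HET, which limits the precision for sparse genes. Positions came from GENCODE vM21, and promoters from RefSeq matched 6 of 7 members. Scripts used matplotlib 3.10.9, scipy 1.17.1, pandas 2.3.3, numpy 2.4.6 and Python 3.11.15, were tested on simulated data and were rerun under other scalings, filters and weights.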

Additional observations from a re-analysis of the deposited data

How the results depend on the processing

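No paired analysis was possible because each genotype has 1 library, so that the groups share fewer than 2 replicate numbers, and no library could be left out. The intervals cover counting error, and a difference between mice, dissections or library preparations cannot be told apart from genotype. Of 161 recomputed log2 ratios of members, 155 stayed within the counting interval and none that was called changed sign. Of the recomputed values of other kinds, 45 were scored as moved and 22 as the same. With every cluster given the same weight in both libraries, the log2 ratio over all nuclei was 1.16 for *Tph2* and −0.21 for *Slc6a4*, and outside neuron.7 it was −0.18 for *Slc22a3*. With the median of all genes set to 0 the ratio of *Slc18a2* over all nuclei was 0.49. In nuclei of neuron.7 with a *Hox* UMI, a split chosen after seeing the data, the log2 ratio was 0.14 for *Ddc* and −1.10 for *Slc22a3*. The *Slc22a3* value rests on 17 UMIs in HET. With each nucleus given the same weight, the share of UMIs in neuron.7 was 81.2% for *Tph2*, 81.3% for *Slc6a4*, 12% for *Slc18a2*, 25.4% for *Ddc*, 7.48% for *Maob* and 42.5% for *Slc22a3*, where neuron.7 nuclei had a median of 11527 UMIs and the other nuclei 5533. Among the list genes, a threshold of 2-fold left 1 higher and 1 lower over all nuclei and 1 higher and 1 lower in neuron.7. In neuron.7 a minimum of 100 UMIs left 0 higher and 1 lower, and no minimum gave 8 lower. Setting the median of the genes with at least 20 UMIs there (−0.09) to 0 gave 1 lower (*Qdpr*), without *Gch1*, *Gata2* and *Gata3*. Centring on the genes with at least 100 UMIs, whose median was 0.03, was not run. No nucleus outside neuron.7 held at least 2 UMIs of more than 1 of *Tph2*, *Slc6a4* and *Fev* (0 nuclei). With a pseudocount of 10, between 1 and 3 of the 3 genes most like each member stayed in that list. Where a cause is not named, the cause was not tested.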
